A study of Arabidopsis thaliana with 18 samples.

Results

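The transcripts described here stood higher after 1 h in far-red light in both genotypes of Arabidopsis thaliana seedlings and had mostly returned towards their dark level after 24 h. They were chosen by a rule on the group means of the log2 signal intensities. A probe set was a member when its mean after 1 h of far-red light was at least 0.8 above darkness in wild type and in the pif4pif5 double mutant, and its mean after 24 h was under 0.8 above darkness in at least one of the genotypes. Of 22746 probe sets tested, 125 met the 1 h condition and 54 of these also met the 24 h condition. The transcripts HYH, GI and AT1G06000, 3 of the 54, were left out by name. This left 51 members, and the other 71 fast rises were kept at 24 h in both genotypes.

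The seedlings were of the Columbia background, and the double mutant lacks PIF4 and PIF5. All were grown alike: seeds spent 3 days in the cold, red light of 50 µmol/m2/s was given for 3 h, and 3 days of darkness followed. Wild type and pif4pif5 were each sampled in the dark, after far-red light of 0.5 µmol/m2/s for 1 h, and after 5 µmol/m2/s for 24 h, with 3 arrays per group lettered A, B and C, 18 in all. Duration and fluence rate differed together, and the seedlings given 24 h of light were older than the dark ones with no dark group of their age, so duration, fluence rate and age cannot be told apart at 24 h.

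Far-red light is perceived in etiolated seedlings by phytochrome A, which moves into the nucleus on activation and alters the transcription of light-response genes. PIF4 and PIF5 are basic helix-loop-helix proteins that interact with light-activated phytochrome and favour elongation growth. Early light-response genes include regulators of the pathway itself, and many are known to respond only briefly after the first light.

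On the array platform, each value is the log2 signal intensity of a probe set, so a difference of 1 is a doubling of signal. Where intensities of different probe sets stand side by side, they are a description and not relative amounts of transcript, because each probe set has its own response. Of the 51 members, 18 had exactly 1 gene assigned, 1 had several and 32 had none. Of all 22746 probe sets tested, 13513 had 1 gene, 503 several and 8730 none. No probe set was assigned to PIF4 or PIF5, and the mutant label therefore has no check on either gene. The labels do not say whether replicates were separate cultures, so p-values measure the spread between these samples. Whole seedlings were extracted, so fewer cells of a type and less RNA per cell cannot be told apart. Of the fixed tissue markers, the shoot gene RCA averaged 10.99 and the root gene PYK10 11.97 in dark wild type, while the root hair genes EXPA7 and EXPA18 averaged 3.73 and 4.01. The seed oil-body gene OLEO3 averaged 8.52. These are 1 of 5 shoot, 3 of 8 root and 1 of 5 seed markers, the others not being measured alone. The wild-type dark replicate C stood apart from the other 17 arrays, with a median log2 intensity of 6.16 against 5.60 to 5.88. Its members' mean deviated by 0.25 from the group mean, close to the 0.24 of all probe sets.

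Averaged over all 51 members, the intensity was 6.25 ± 0.22 (SD, n = 3) in dark wild type, 7.73 ± 0.09 after 1 h and 6.64 ± 0.12 after 24 h. The same average in pif4pif5 ranged from 6.35 to 6.44 over the 3 dark arrays, and was 7.80 ± 0.12 after 1 h and 6.51 ± 0.13 after 24 h. The 1 h and 24 h values chose the members, so these figures are a description and carry no test. The median difference from darkness at 1 h was 1.34 in wild type (range 0.81 to 3.53) and 1.14 in pif4pif5 (range 0.80 to 3.69). At 24 h it was 0.44 in wild type (range -0.69 to 1.60) and 0.25 in pif4pif5 (range -1.35 to 1.00). The corresponding medians of all probe sets were -0.12 and -0.07 at 1 h, and -0.12 and -0.04 at 24 h. In dark wild type the members had a median level of 6.27 (range 3.49 to 9.78) against 5.81 for all probe sets, and 20 of the 51 were below that overall median.

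The return by 24 h was not complete for all members. Of the 51, 41 were under 0.8 above darkness in both genotypes, 4 in wild type alone and 6 in pif4pif5 alone. For 50 members the 24 h mean was below the 1 h mean in both genotypes, the exception being AT1G80130 in wild type. The 24 h mean was below the dark mean for 8 members in wild type and for 18 in pif4pif5, 7 of them shared. At least 0.8 below darkness were 4 members in pif4pif5 and 0 in wild type. The signed difference of 24 h from darkness was lower in pif4pif5 than in wild type for 39 of 51 members. That count ranged from 35 to 41 over the leave-one-out and rescaled values, with the same 51 members throughout. Lower includes members that stood below darkness, so it does not mean closer to the dark level. The rule used both differences, so the count is a description and carries no test. For all probe sets the median 24 h difference was -0.12 in wild type and -0.04 in pif4pif5. Tissue markers also moved between darkness and 24 h. RCA rose by 1.56 in wild type (adjusted p = 1.15e-06) and by 1.13 in pif4pif5 (adjusted p = 4.05e-05), and OLEO3 fell by 1.82 (adjusted p = 1.97e-05) in wild type and fell by 2.93 (adjusted p = 1.34e-07) in pif4pif5. Of the 3 root markers limma called 0 in either genotype, with 0 at an unadjusted p under 0.05. The part of these markers' tissues in the members' 24 h values was not tested. With wild-type dark replicate C left out, 7 members were below darkness in wild type at 24 h and the wild-type medians were 1.44 at 1 h and 0.56 at 24 h.

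**Figure D1:**
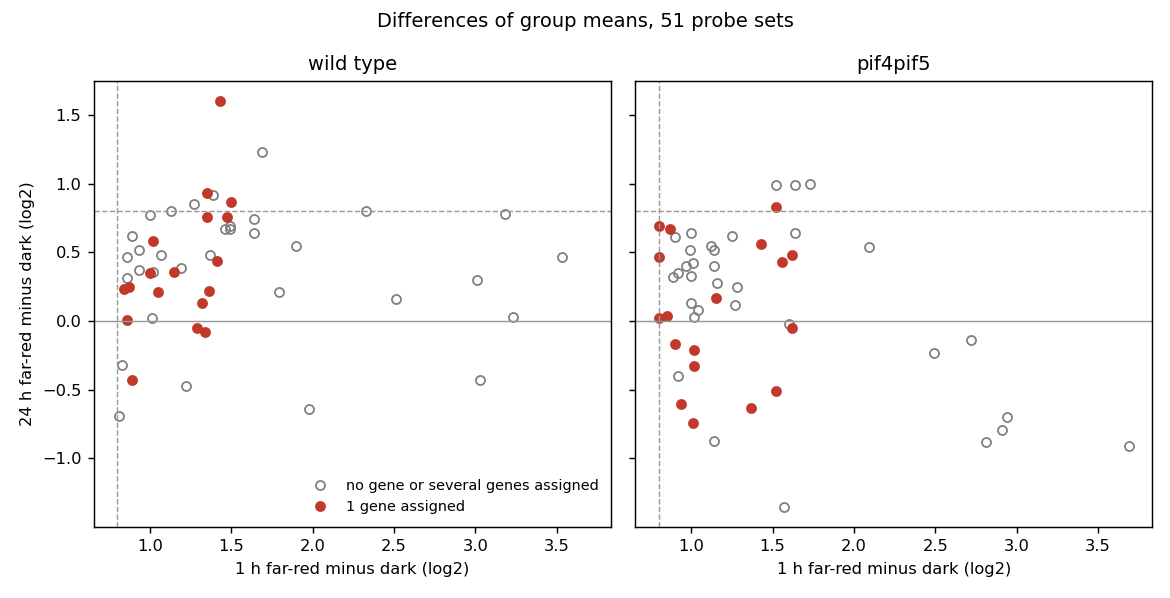
Difference from darkness after 1 h (horizontal axis, log2) against the difference after 24 h (vertical axis, log2) for each member in each genotype. Differences are of means of 3 arrays per group. The 51 members lie under 0.8 on the vertical axis in at least one genotype, as the rule asks. Both axes subtract the same dark arrays.

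Among the regulators of light signalling, AFR (AT2G24540) had the largest mean 1 h difference of the members with a single gene. It encodes an F-box protein with Kelch repeats that is known as a positive factor in phytochrome A signalling. On wild-type replicates A, B and C its intensity was 5.58, 6.24 and 5.72 in darkness, 7.26, 7.52 and 7.27 after 1 h, and 6.83, 6.64 and 6.69 after 24 h. In pif4pif5 it was 6.09, 6.09 and 6.32 in darkness, 7.83, 7.88 and 7.64 after 1 h, and 6.86, 6.34 and 6.74 after 24 h. All 1 h arrays were above all dark arrays of the same genotype, and the 1 h signal was 2.83-fold the dark signal in wild type and 3.06-fold in pif4pif5. At 24 h AFR still stood 0.87 above darkness in wild type and 0.48 above in pif4pif5.

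AT2G16365 encodes PCH1, a protein known to bind phytochrome B in nuclear bodies. Its wild-type intensities were 6.47, 6.66 and 7.69 in darkness, 7.94, 8.15 and 7.87 after 1 h, and 7.31, 7.05 and 7.09 after 24 h. Those of pif4pif5 were 6.66, 6.39 and 7.18, then 7.54, 7.68 and 7.71, then 6.60, 5.99 and 7.12. Replicate C was the highest dark array in both genotypes, and in neither did dark and 1 h arrays overlap. The 1 h difference was 1.05 in wild type and 0.90 in pif4pif5, and the 24 h difference 0.21 and -0.17.

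SMZ (AT3G54990) encodes an AP2-type transcription factor known to repress flowering. It measured 6.45, 6.72 and 6.96 in dark wild type, 8.13, 8.15 and 7.94 after 1 h, and 7.22, 6.84 and 6.75 after 24 h. In pif4pif5 the values were 6.36, 6.42 and 6.80 in darkness, 8.24, 8.28 and 7.92 after 1 h, and 6.74, 5.96 and 6.73 after 24 h. Its 1 h arrays lay above every dark array of either genotype, while the 24 h arrays overlapped the dark ones. In wild type its mean difference from darkness was 1.36 at 1 h and 0.22 at 24 h, and in pif4pif5 it was 1.62 and -0.05.

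Further transcription-related members had smaller or less even differences. AT1G70000 encodes a MYB-like protein and stood 1.00 above darkness at 1 h in wild type and 1.15 in pif4pif5. Its wild-type dark arrays read 5.66, 5.42 and 6.75, with replicate C far above the others, and its 1 h arrays 6.87, 6.95 and 7.03. AT1G07050 encodes a protein with a CCT motif, a domain found in CONSTANS-type and clock proteins. Its wild-type values were 4.32, 4.48 and 5.11 in darkness and 5.75, 5.79 and 5.03 after 1 h, so dark and 1 h arrays overlapped on replicate C. At 24 h it lay below darkness in both genotypes, by means of -0.43 and -0.33.

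Enzymes of the cell wall formed a second group by role. XTH32 (AT2G36870) belongs to the enzymes that cut and rejoin xyloglucan, the main cross-linking glycan of the growing primary wall. Its wild-type arrays read 6.92, 7.09 and 6.02 in darkness, 8.11, 8.37 and 7.59 after 1 h, and 7.08, 6.92 and 5.80 after 24 h. The pif4pif5 arrays read 7.12, 7.61 and 6.72 in darkness, 9.05, 8.81 and 8.17 after 1 h, and 6.78, 7.04 and 6.10 after 24 h. Replicate C was the lowest array in all 6 groups. Taken by letter, the 1 h difference was 1.18, 1.28 and 1.57 in wild type and 1.93, 1.20 and 1.44 in pif4pif5. At 24 h the mean was -0.08 from darkness in wild type and -0.51 in pif4pif5.

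AT1G48100 encodes a polygalacturonase, an enzyme that cleaves pectin. It read 3.87, 3.74 and 4.51 in dark wild type, 5.45, 5.31 and 5.41 after 1 h, and 5.38, 5.25 and 4.27 after 24 h. For pif4pif5 the dark values were 4.25, 4.27 and 4.39, the 1 h values 5.62, 5.89 and 5.71, and the 24 h values 5.59, 4.18 and 4.81. The 1 h arrays lay close together in each genotype, whereas the 24 h arrays were scattered and in wild type fell in both the 1 h and the dark range. Its 24 h mean difference was 0.93 in wild type and 0.56 in pif4pif5.

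**Figure D2:**
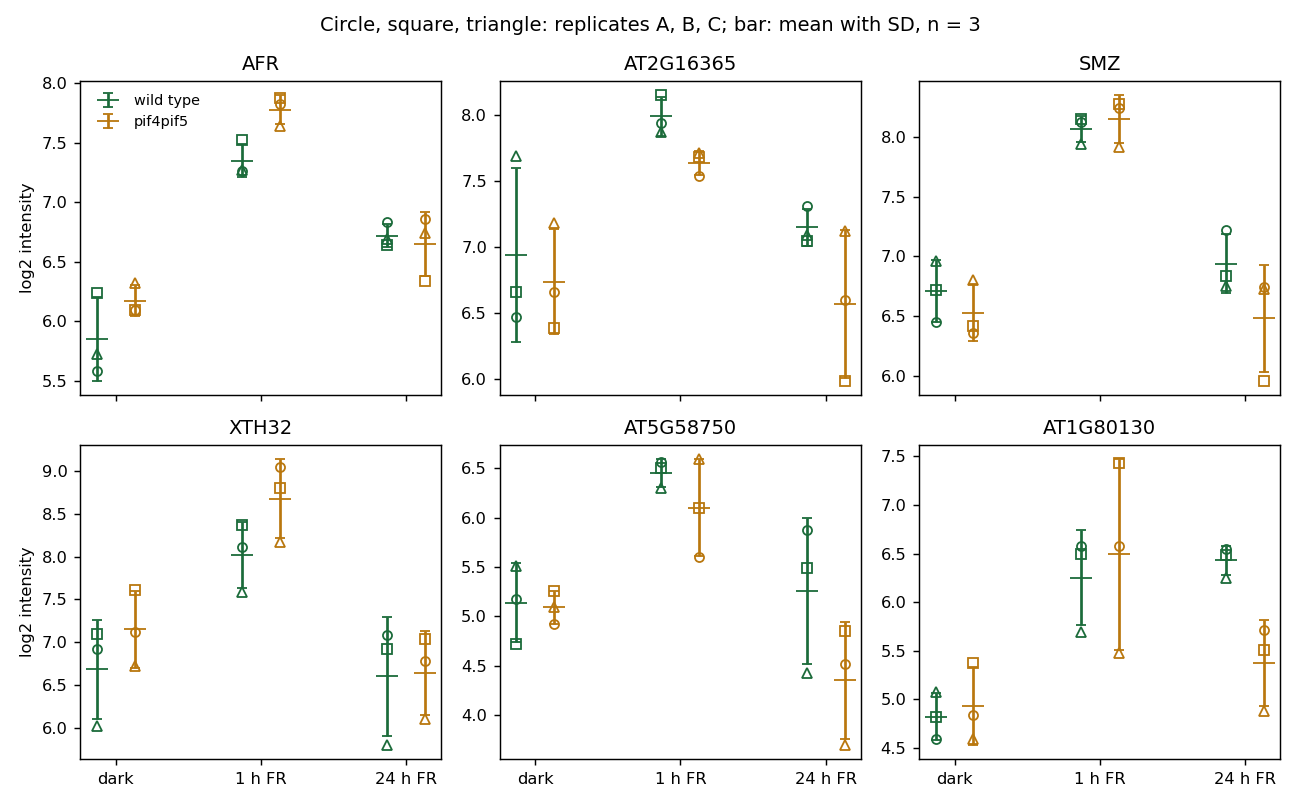
Log2 signal intensity (vertical axis) of chosen members on every array in darkness, after 1 h and after 24 h of far-red light, for wild type and pif4pif5. Circles, squares and triangles are replicates A, B and C, and bars are the mean ± SD of 3 arrays. For AFR and SMZ all 1 h arrays lie above all dark arrays, and for XTH32 replicate C is the lowest in every group.

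Further members encode enzymes and transporters. AT5G15950 encodes S-adenosylmethionine decarboxylase, an enzyme of polyamine synthesis. Its wild-type intensities were 5.85, 4.94 and 6.16 in darkness, 7.31, 7.43 and 6.63 after 1 h, and 6.65, 6.56 and 6.01 after 24 h. Those of pif4pif5 were 6.12, 5.82 and 6.09, then 7.09, 7.40 and 6.60, then 6.34, 5.81 and 5.25. The 1 h means were 1.47 above darkness in wild type and 1.02 in pif4pif5. At 24 h they were 0.76 above and -0.21 from darkness.

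GTR1 (AT3G47960) encodes a transporter of glucosinolates, the sulphur-containing defence compounds of the cabbage family. In wild type it measured 5.95, 5.76 and 5.98 in darkness, 6.86, 6.68 and 6.75 after 1 h, and 5.91, 6.17 and 5.63 after 24 h. In pif4pif5 it measured 6.30, 6.35 and 5.95 in darkness, 7.16, 7.03 and 7.23 after 1 h, and 6.07, 5.00 and 5.72 after 24 h. Its 1 h differences of 0.86 and 0.94 were near the threshold, but no 1 h array overlapped a dark array. At 24 h it was back at 0.01 in wild type and at -0.60 in pif4pif5.

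AT1G61890 and AT3G21690 both encode efflux carriers of the MATE family, which export small molecules from cells or into vacuoles. AT1G61890 averaged 8.08 ± 0.33 (SD, n = 3) in dark wild type, 9.23 ± 0.12 after 1 h and 8.44 ± 0.05 after 24 h. AT3G21690 averaged 7.36 ± 0.37, 8.20 ± 0.12 and 7.59 ± 0.40 in the same conditions. Both carriers lay just inside the 1 h threshold, at 0.802 and 0.804 in pif4pif5, as did AT1G73480, also at 0.804. The nearest probe sets outside it reached 0.791 and 0.783. At 24 h the members nearest the limit were at 0.690 and 0.688 in their lower genotype, and the nearest excluded genes, AT1G66330 and AT3G02910, at 0.813 and 0.819.

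In the gene order of assembly TAIR10.1, AT3G21690 lies 3 annotated genes from AT3G21670, a gene of the nitrate transporter family. AT3G21670 was one of the 71 rises kept at 24 h. In wild type it stood 2.04 above darkness at 1 h and 2.56 at 24 h, with 2.14 and 2.74 in pif4pif5. It was the only pair within 5 genes when the 18 named members were set against all 39 fast rises with a single gene.

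AT4G21870 encodes a small heat-shock-type chaperone. It averaged 8.06 ± 0.59 (SD, n = 3) in dark wild type, with replicate C lowest at 7.39, then 9.08 ± 0.16 after 1 h and 8.64 ± 0.27 after 24 h. It lost little by 24 h in pif4pif5, where 1 h stood 0.87 and 24 h 0.67 above darkness. AT1G73480, an alpha/beta hydrolase, was the noisiest named member, with a residual SD of 0.70 against a members' median of 0.29. Its dark wild-type arrays read 5.93, 5.46 and 7.58 and its 1 h arrays 7.16, 7.38 and 8.47, so they overlapped. They overlapped in pif4pif5 as well, at 6.49 ± 0.58 (SD, n = 3) in darkness and 7.29 ± 0.51 after 1 h.

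The loci AT1G80130, AT5G58750, AT2G46420, AT1G13670 and AT1G32690 are given without a role, apart from the tetratricopeptide-type repeats of AT1G80130. AT1G80130 read 4.59, 4.81 and 5.07 in dark wild type, 6.58, 6.50 and 5.69 after 1 h, and 6.55, 6.48 and 6.25 after 24 h. Its pif4pif5 values were 4.84, 5.37 and 4.59 in darkness, 6.58, 7.43 and 5.47 after 1 h, and 5.71, 5.51 and 4.88 after 24 h. In wild type it was thus as high after 24 h as after 1 h, at 1.60 and 1.43 above darkness. It met the rule through pif4pif5 alone, where the differences were 1.56 at 1 h and 0.43 at 24 h.

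AT5G58750 measured 5.18, 4.72 and 5.51 in dark wild type, 6.56, 6.50 and 6.30 after 1 h, and 5.87, 5.49 and 4.43 after 24 h. For pif4pif5 it measured 4.92, 5.26 and 5.09, then 5.60, 6.10 and 6.59, then 4.52, 4.85 and 3.70. All pif4pif5 arrays at 24 h were below all its dark arrays, with a mean of -0.74, while the wild-type mean was 0.13. AT2G46420 had the closest 1 h arrays of the named members, at 7.04 ± 0.03 (SD, n = 3) in wild type and 7.29 ± 0.03 in pif4pif5. Its 1 h differences were 1.29 and 1.37 and its 24 h differences -0.05 and -0.63. AT1G13670 stood 1.41 and 1.52 above darkness at 1 h. After 24 h its difference from darkness was 0.44 in wild type and 0.83 in pif4pif5. AT1G32690 stood 0.87 and 0.85 above darkness at 1 h, and 0.25 and 0.04 at 24 h.

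The largest 1 h differences belonged to probe sets with no assigned gene, including all 7 members that stood at least 2 above darkness in both genotypes. Probe set 258321_at read 4.53, 4.83 and 5.48 in dark wild type, 8.57, 8.75 and 8.10 after 1 h, and 5.77, 5.63 and 4.84 after 24 h. In pif4pif5 it read 5.95, 5.87 and 5.47, then 10.03, 9.71 and 8.63, then 4.84, 4.95 and 4.78. The 1 h signal was 11.5-fold the dark signal in wild type and 12.9-fold in pif4pif5. At 24 h it stood 0.47 above darkness in wild type and at -0.91 in pif4pif5, where all 24 h arrays were below all dark arrays.

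Probe set 245306_at read 6.58, 7.18 and 6.90 in dark wild type, 10.15, 10.20 and 9.83 after 1 h, and 7.89, 8.02 and 7.07 after 24 h. Its pif4pif5 arrays read 7.90, 7.73 and 7.37, then 10.89, 10.90 and 9.94, then 7.21, 7.02 and 6.41. Again the pif4pif5 arrays at 24 h were all below the dark ones, at a mean of -0.79, against 0.78 in wild type. The 1 member whose probe set matches several genes stood 0.93 and 1.00 above darkness at 1 h, and 0.37 and 0.33 at 24 h.

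The arrays of one group differed in how strongly the members responded. After 1 h, replicate C was the lowest array for 30 of 51 members in wild type and for 28 in pif4pif5, and after 24 h for 29 in wild type. The members' mean on these arrays deviated by -0.09, -0.13 and -0.13 from their group means, against 0.02, -0.01 and -0.03 for all probe sets. In pif4pif5 at 24 h replicate B was the lowest for 26 members. Within groups, the median pairwise correlation of the members' deviations was 0.16 over 18 arrays, and members on one array share its preparation.

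The rule did not use the comparison of genotypes within a condition, though it used the same arrays. The dark arrays enter every difference of the rule, so the comparison is not independent of how the members were chosen. The comparison asks whether the loss of PIF4 and PIF5 altered the level of these transcripts in darkness, at 1 h or at 24 h. Differences are pif4pif5 minus wild type on the log2 scale, from a limma model across all 22746 probe sets with n = 3 arrays per group. At 24 h the rule bears most directly on the comparison for the 10 members that stayed at 0.8 or more in one genotype. No member was called at an adjusted p of 0.05 in any of the 3 conditions. The median half-width of a member's 95% interval was 0.46, which is the precision of a typical difference with this number of arrays.

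In darkness 36 members were higher and 15 lower in pif4pif5, with a median difference of 0.13 (range -0.39 to 0.88) against -0.05 for all probe sets. Among all probe sets 38.3% were higher in pif4pif5. The dark arrays also entered the rule, so these counts are a description. With limma 0 of 51 were called, against a background of 0.0264% of all probe sets, and 5 had an unadjusted p under 0.05, all of them higher. That is 9.8% of members, against 7.27% of all probe sets. The arrays did not overlap for 6 members, all higher in pif4pif5, against a background of 6.91%. The members' median moved with the median of all probe sets when a dark wild-type array was left out. Without replicate A they were 0.05 and -0.11, without B 0.06 and -0.12, and without C 0.24 and 0.07, the last with 44 members higher. The 2 unnamed leaders were among the higher members, 258321_at by 0.82 (95% interval 0.15 to 1.48, adjusted p = 0.587) and 245306_at by 0.78 (95% interval 0.19 to 1.38, adjusted p = 0.564). AFR was 0.32 higher (95% interval -0.04 to 0.67, adjusted p = 0.737), and XTH32 0.47 higher (95% interval -0.29 to 1.23, adjusted p = 0.876).

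After 1 h of far-red light 29 members were higher and 22 lower in pif4pif5, with a median of 0.08 (range -0.43 to 0.98) against -0.02 for all probe sets. The share of all probe sets higher in pif4pif5 was 45.1%. Again limma called 0 of 51, against a background of 0.0264%, and 2 had an unadjusted p under 0.05. These were AFR and 258321_at, both higher in pif4pif5, and they make 3.92% of members against 4.06% of all probe sets. AFR averaged 7.78 ± 0.12 (SD, n = 3) in pif4pif5 and 7.35 ± 0.14 in wild type, and the arrays did not overlap. The difference was 0.43 (SE 0.17, 95% interval 0.07 to 0.79, adjusted p = 0.98). For 258321_at it was 0.98 (SE 0.32, 95% interval 0.32 to 1.65, adjusted p = 0.651) and the arrays overlapped, with pif4pif5 replicate C the low one. Without that array the difference was 1.40 (adjusted p = 0.0558), the lowest adjusted p over 10 alternatives by rescaling, the 2 groups alone, the block or left-out arrays. Over these the difference ranged from 0.69 to 1.40, and 0 were called. With array weights, AFR and 258321_at passed the threshold, at 0.43 (adjusted p = 0.0492) and 0.92 (adjusted p = 0.039). That fit called 425 of all probe sets, a background of 1.87%.

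The genotypes' 1 h arrays did not overlap for 6 members, against a background of 17.1%. Those were AFR, AT1G48100, AT2G46420, AT1G70000 and GTR1, higher in pif4pif5, and AT2G16365, lower. GTR1 was 0.38 higher (95% interval -0.06 to 0.81, adjusted p = 1), and AT2G16365 differed by -0.34 (95% interval -0.94 to 0.26, adjusted p = 1). XTH32 was 0.65 higher (95% interval -0.11 to 1.41, adjusted p = 1), with overlapping arrays.

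After 24 h 18 members were higher and 33 lower in pif4pif5, with a median of -0.10 (range -1.06 to 0.49) against 0.00 for all probe sets. The share of all probe sets higher in pif4pif5 was 49.4%. In limma's test 0 of 51 were called, against a background of 0.365%, and 6 had an unadjusted p under 0.05, 1 higher and 5 lower. These are 11.8% of members, against 8.27% of all probe sets. The lowest adjusted p from limma, 0.296, belonged to a member with no assigned gene, at -0.60 (95% interval -1.01 to -0.20). The arrays did not overlap for 7 members, against a background of 13.2%. With quantile normalization the members' median was -0.05 against 0.00 for all probe sets. With each array shifted to one median it was -0.05 against 0.04. The seed gene OLEO3 was also lower in pif4pif5 at 24 h, at 5.47 ± 0.36 against 6.71 ± 0.49 (SD, n = 3), a difference of -1.24 (adjusted p = 0.0166). Its adjusted p ranged from 0.000992 to 0.132 over 9 alternatives, and the call was lost without wild-type replicate A, wild-type replicate B or pif4pif5 replicate C. RCA differed by -0.02 (adjusted p = 0.991). The part of seed tissue in the members' differences was not tested.

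AT1G80130 averaged 5.37 in pif4pif5 and 6.43 in wild type at 24 h, with no overlap, a difference of -1.06 (SE 0.36, 95% interval -1.82 to -0.29, adjusted p = 0.362). The rule itself asked for a low 24 h value in one genotype, so this member was partly selected on that difference. SMZ differed by -0.46 (SE 0.21, 95% interval -0.89 to -0.03, adjusted p = 0.568), also with no overlap. AT1G32690 differed by -0.39 (95% interval -0.83 to 0.05, adjusted p = 0.686), the third named member without overlap.

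AT5G58750 differed by -0.91 (SE 0.33, 95% interval -1.61 to -0.21, adjusted p = 0.399), with overlapping arrays because wild-type replicate C was low. Over 10 alternatives the adjusted p ranged from 0.0586, without that array, to 0.935, and 0 were called. The difference of 245306_at was -0.78 (95% interval -1.38 to -0.19, adjusted p = 0.388), the reverse of its sign in darkness. AT5G15950 differed by -0.61 (95% interval -1.27 to 0.05, adjusted p = 0.659) and AT2G16365 by -0.58 (95% interval -1.18 to 0.02, adjusted p = 0.631). AFR and XTH32 differed by -0.08 (95% interval -0.43 to 0.28, adjusted p = 0.968) and 0.04 (95% interval -0.72 to 0.80, adjusted p = 0.994). Whether any genotype difference varied between conditions was not tested, because such a contrast contains the differences that chose the members.

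**Figure D3:**
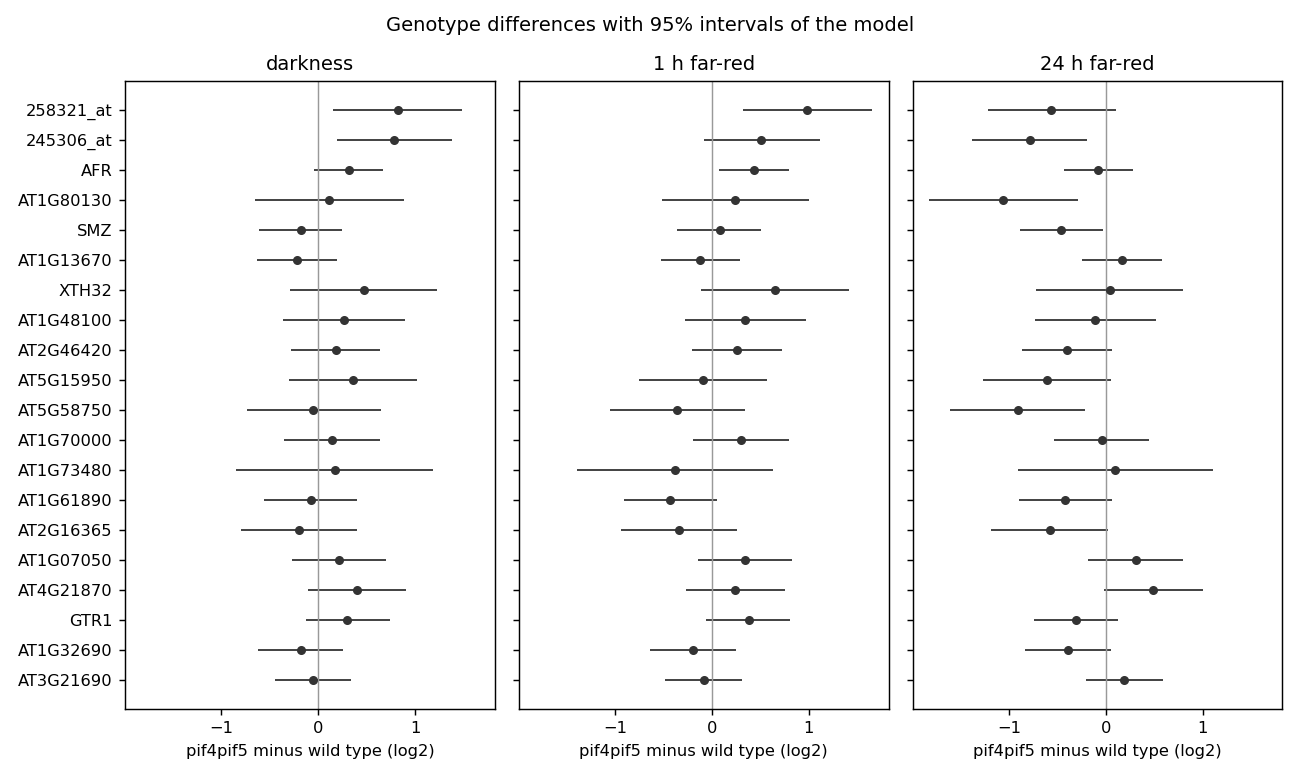
Difference between genotypes (pif4pif5 minus wild type, log2, horizontal axis) for the named members in darkness, after 1 h and after 24 h of far-red light, with 95% intervals from the limma model on 3 arrays per group. None passed an adjusted p of 0.05, and the point furthest from 0 is AT1G80130 at 24 h, at -1.06.

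The 71 fast rises kept at 24 h offer the nearest comparison. Their 1 h medians were 1.37 in wild type and 1.26 in pif4pif5, near the members' 1.34 and 1.14. Their 24 h medians were 1.79 and 1.64, a contrast that the rule made. Both sets had the same median dark wild-type level, 6.27, and their median residual SDs were 0.31 and 0.29. The median genotype differences of the kept rises were 0.26 in darkness, 0.20 at 1 h and 0.14 at 24 h, and limma called 2, 1 and 1 of the 71. The same medians for the members were 0.13, 0.08 and -0.10, and the contrast between the sets was not tested.

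Most genes of the pathway lists had no probe set that named them alone. HYH, GI and AT1G06000, which met the rule and were left out by name, are on these lists, and AFR is on none. The rule used their differences from darkness. Their calls and p-values against darkness, here and in the next paragraph, are therefore a description. For far-red light against darkness, limma called 0.787% of all probe sets at 1 h in wild type, 0.699% at 1 h in pif4pif5, 11.3% at 24 h in wild type and 11.5% at 24 h in pif4pif5. The phytochrome A signalling list had 3 of 19 genes measured. HYH, a bZIP factor close to HY5, rose at 1 h in both genotypes, by 1.65 and 1.57. AT1G18810, which encodes a phytochrome kinase substrate protein, was at 0.29 and 0.49 at 1 h, neither called. At 24 h it rose in wild type from 4.74 ± 0.38 (SD, n = 3) to 6.04 ± 0.19 (adjusted p = 0.000186) and in pif4pif5 by 1.92 (adjusted p = 2.94e-06). FHL, which carries phytochrome A into the nucleus, was at -0.58 and -0.67 at 1 h, neither called. At 24 h FHL was at -0.73 in wild type (adjusted p = 0.1) and fell by 1.43 in pif4pif5 (adjusted p = 0.00161). The genotypes' FHL levels at 24 h differed by -0.86 (limma, adjusted p = 0.304). HYH was called at 24 h in wild type alone, by 1.58 (adjusted p = 0.000215), and was at 0.74 in pif4pif5 (adjusted p = 0.0571). Its 24 h levels were 5.75 in wild type and 5.62 in pif4pif5 (limma, difference -0.12, adjusted p = 0.964). Its dark levels were 4.16 ± 0.64 and 4.88 ± 0.07 (SD, n = 3). In wild type at 1 h, 2 of the 3 genes were called when dark replicate B was left out.

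In the flavonoid list 5 of 19 genes were measured and 2 rose at 1 h in each genotype, UGT78D2 and AT1G06000. Both met the 1 h condition of the rule, so these rises are a description. Without pif4pif5 1 h replicate C, 4 were called there. At 24 h 1 of the 5 was called higher in each genotype, UGT78D2 by 1.02 and 1.04, and AT1G06000 was called lower in pif4pif5, at -0.79 (adjusted p = 0.042). With quantile normalization 1 gene in place of 2 was called there. The clock list had only GI measured of 16, at 1.08 and 1.56 at 1 h and 0.73 and 1.18 at 24 h. GI was called in each, but the rule had used these differences, so its calls are a description. In wild type its 1 h call was lost without dark replicate B or any single 1 h array, and its 24 h call without dark replicate A, B or any single 24 h array. The nitrate list had only AT3G21670 of 8 measured, and none of 15 B-box factors or 7 photoprotection genes was. In the touch, cold and wounding list 2 of 12 were measured. Limma called 0 of the 2 in either genotype at either time. At an unadjusted p under 0.05 the count was 0 at 1 h in both genotypes and at 24 h in wild type, and 2 at 24 h in pif4pif5, where 1 was called without replicate C of the 24 h group. STZ, a zinc-finger repressor of transcription, was at -0.29 and -0.49 at 1 h, and COR15A, a cold-induced chloroplast protein, at -0.19 and 0.12.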

How the data were processed

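RNA of whole seedlings was measured on Affymetrix arrays, from 100 ng of amplified total RNA per the labels' protocols. The deposited log2 signal intensities were made by the authors with RMA (robust multi-array averaging), per the submitters' processing notes. Its version, background model and probe annotation are not stated in the sources used here. No further scaling was applied. Of 22810 probe sets, 64 were array controls and 22746 were tested. Genes came from the supplied platform table and symbols from RefSeq's gene table (TAIR10.1), where 13436 of the 13513 probe sets with 1 gene had an entry.

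In R 4.3.3, limma 3.58.1 estimated 1 mean for each group from the 18 arrays together, with moderated variances (5.91 prior and 12 residual degrees of freedom). P-values were adjusted by Benjamini-Hochberg over all 22746 probe sets within a comparison, two-sided, with a threshold of 0.05. An exact test of 3 arrays against 3 cannot go below 0.1. The procedure was tested on simulated data. The number of arrays limits the precision. No per-sample column was left unused.

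The members, the gene lists and the tests were chosen with earlier results of these data known. Lists covered phytochrome A signalling, B-box factors, the clock, flavonoids, photoprotection, touch, cold and wounding, nitrate use, and shoot, root and seed markers. Members with 1 gene were named in the order of their mean 1 h difference, up to 25, with at most 2 members without a gene, chosen for the largest 1 h differences. For lists, up to 3 called genes were named. A planned description of promoter motifs was not made, as no sequences were used here. Alternatives were other scalings, thresholds, variance models, filters, the replicate letter as a block, array weights, and each array left out.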

Additional observations from a re-analysis of the deposited data

How the results depend on the processing

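The number of members was 51 as reported and kept within 1.5 times of that under every alternative run: 68 with quantile normalization (51 shared), 69 with arrays shifted to one median (50 shared), 73 and 43 with thresholds of 0.7 and 0.9 (51 and 38 shared), 58 with group medians (42 shared), and 46 to 57 when one array was left out, with at least 41 shared, the fewest without wild-type dark replicate B. No member was called for genotype in any condition under any alternative, except 2 at 1 h with array weights (AFR and 258321_at). The count of all probe sets called was less stable, and the cause was not tested. In darkness it was 6, and 11 with quantile normalization, 17 with limma-trend, 3 with array weights, 1 over single-gene probe sets and 0 with the 2 groups alone (limma, 552 at an unadjusted p under 0.05). It was 2 to 702 with one array left out, with 702 without wild-type dark replicate A and 23 without C. At 1 h it was 6, and 16 with limma-trend, 425 with array weights, 12 without low probe sets, 3 over single-gene probe sets and 2 to 52 with one array left out, with 52 without pif4pif5 replicate C. At 24 h it was 83, and 225 with array weights, 40 over single-gene probe sets, 13 with the 2 groups alone and 21 to 178 with one array left out, with 178 without wild-type replicate C.

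With the replicate letter as a block, limma called 23, 39 and 118 probe sets in darkness, at 1 h and at 24 h, and 0 members in each, with a lowest adjusted p of 0.219, 0.164 and 0.0915. Correlations of same-lettered deviations between genotypes were 0.34, 0.05 and 0.36 in darkness for A, B and C. They were 0.10, 0.03 and 0.45 at 1 h and 0.02, 0.13 and 0.35 at 24 h. For C the highest correlation with another letter was -0.14, -0.21 and -0.18, so C deviated alike in both genotypes. For A in darkness it was 0.15, and otherwise A and B were no higher with their own letter. The main fit did not treat letters as pairs, and whether same-lettered arrays shared a batch was not tested. For the 60 genotype differences of named members, 600 values were recomputed under rescaling, the 2 groups alone, the block and left-out arrays. None was called. Counts in the gene lists moved by over 1.5 times in 20 of 180 recomputed values. The alternatives for the medians over members and for RCA and OLEO3 were added after seeing the data.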
